A study of Mus musculus with 2 samples.

Results

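Noncoding RNA of the immunoglobulin and T cell receptor loci was compared in mouse spleen between collagen-induced arthritis (CIA) and health, with 1 library for each. CIA is a mouse model of rheumatoid arthritis in which joints become inflamed after immunization against type II collagen. Both sample titles name day 40, the treatment label of the CIA mice names day 42 after the first immunization as the day of sacrifice, and the healthy mice had no treatment. Strain, age, sex and the number of mice pooled per library are not stated in the labels used here. Members were all transcripts in the authors' tables of annotated and assembled long noncoding RNA (lncRNA) that overlap any of 6 windows of GRCm38. The windows were chr12:113200000-116010000 for the immunoglobulin heavy chain (Igh), chr6:67500000-70750000 for kappa (Igk) and chr16:19000000-19300000 for lambda (Igl). Those of the T cell receptor were chr14:52400000-54250000 for the alpha and delta chains (Tcra/d), chr6:40850000-41600000 for beta (Tcrb) and chr13:19150000-19400000 for gamma (Tcrg). The rule uses position alone and found 95 of 32012 transcripts, of which 22 were annotated and 73 were assembled by StringTie and named MSTRG. Values are FPKM (fragments scaled by transcript length and by the size of the library), and a listed 0.0001 was taken as 0. Every difference below lies between 2 libraries, without a replicate check, so no p-value was computed, and sequencing depth is unknown.

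Antigen receptor genes are assembled in developing lymphocytes by joining variable (V), diversity (D) and joining (J) segments upstream of a constant (C) gene. B lymphocytes join the immunoglobulin loci and T lymphocytes the T cell receptor loci. Segments that have not been joined are transcribed as well, on the coding strand as germline transcripts and at Igh also on the opposite strand, and this RNA is known to accompany the opening of the loci in mouse lymphocyte precursors. V segments form families of close copies, so short reads from a member of a family can align to another. Spleen holds mature B and T cells and, after immunization, antibody-secreting cells. In bulk RNA, fewer cells of a type cannot be told apart from less RNA per cell. The receptor mRNAs, and marker mRNAs that would check the cell types, were not analysed here.

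The sequences of segments in or near the spans of members show how close these copies are. The spans of the Igh members over the D segments together held 17 of the 22 D genes and D pseudogenes of the window. The Ighd2 family, on the minus strand of chromosome 12, is shown because these members run across it. It is given 5′ to 3′ from the GENCODE M21 transcripts, with capitals where a base differs from Ighd2-3 (chr12:113475400-113475416).
Ighd2-3: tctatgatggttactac
Ighd2-4: tctaCTatgAttacGac
Ighd2-5: CctaCTatAgtAactac
Ighd2-6: CctaCTatAgtAactac
Ighd2-7: tctaCTatggttacGac
Ighd2-8: tctaCTatggtAactac
Ighd2-5 and Ighd2-6 are thus identical. The longer segments are shown because the authors' tables name several members after Ighd5-7 and Ighd5-8. Ighd6-1 and Ighd6-2 are D pseudogenes, and Ighd6-1 lies outside the span of every member. Capitals mark differences from Ighd5-8 (chr12:113459864-113459892, minus strand).
Ighd5-8: agacagctagcctctgcagtgccacaacc
Ighd5-7: agGcagctagcctctgcagtgccacaacc
Ighd6-1: agGcagctagcctctgcagtgccacaacc
Ighd6-2: agGcagctagTctctgcagtgccacaacc

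A total of 19 spliced members had their 2 ends inside different V segments. In 18 of the 19 both segments belonged to the same V family. The coding bases of the segments at the ends were 93.9% identical in the median, ranging from 82.9% for Igkv9-128 and Igkv14-126 to 98.6% for Trav16n and Trav16. By comparison, the 6328 pairs among the 113 Igh V genes had a median identity of 63.0%, and 21.3% of them exceeded 80%. Among the 5151 pairs of the 102 Igk V genes the median was 66.5%, and 10.2% exceeded 80%. These 19 members were 203 to 461 bases long over spans of 23.4 to 415.3 kb. Because reads can be shared between such copies, the level of these members cannot be assigned to a segment with certainty. Stretches of 120 coding bases from GENCODE M21 show the end segments of 4 of these members, with capitals where the segments differ. Members described as running from a segment to another are given in order of genomic coordinate, whatever their strand. MSTRG.31469.1 runs from Igkv4-69 (chr6:69283794-69284319, minus strand) to Igkv4-59 (chr6:69438218-69438757, minus strand), whose stretches differ at 1 base.
Igkv4-69: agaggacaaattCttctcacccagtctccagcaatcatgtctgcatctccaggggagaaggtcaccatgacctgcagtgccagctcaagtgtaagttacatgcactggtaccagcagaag
Igkv4-59: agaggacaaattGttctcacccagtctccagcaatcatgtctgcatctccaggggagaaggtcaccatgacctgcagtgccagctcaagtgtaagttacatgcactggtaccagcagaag
MSTRG.9333.4 runs from Ighv8-8 (chr12:115294062-115294504, minus strand) to Ighv8-12 (chr12:115647945-115648387, minus strand), with 4 differences.
Ighv8-8: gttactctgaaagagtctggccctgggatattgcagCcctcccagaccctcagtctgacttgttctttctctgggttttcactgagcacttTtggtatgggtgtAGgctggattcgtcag
Ighv8-12: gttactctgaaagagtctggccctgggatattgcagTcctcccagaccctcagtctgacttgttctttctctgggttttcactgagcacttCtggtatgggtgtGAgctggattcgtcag
MSTRG.31401.1 runs from Igkv1-117 (chr6:68121046-68121827, plus strand) to Igkv1-110 (chr6:68270485-68271267, plus strand), with 5 differences.
Igkv1-117: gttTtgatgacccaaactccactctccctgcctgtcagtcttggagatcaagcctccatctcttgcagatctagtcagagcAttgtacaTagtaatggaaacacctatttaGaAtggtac
Igkv1-110: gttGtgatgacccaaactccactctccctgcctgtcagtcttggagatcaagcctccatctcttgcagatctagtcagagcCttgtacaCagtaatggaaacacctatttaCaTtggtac
MSTRG.12148.2 runs from Trav16n (chr14:53351028-53351621, plus strand) to Trav16 (chr14:53743104-53743705, plus strand), with 1 difference.
Trav16n: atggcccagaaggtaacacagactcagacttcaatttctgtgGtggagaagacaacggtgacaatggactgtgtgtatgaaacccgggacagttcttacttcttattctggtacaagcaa
Trav16: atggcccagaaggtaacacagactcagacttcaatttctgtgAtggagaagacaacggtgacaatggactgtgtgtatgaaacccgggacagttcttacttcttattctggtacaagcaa

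**Figure D1:**
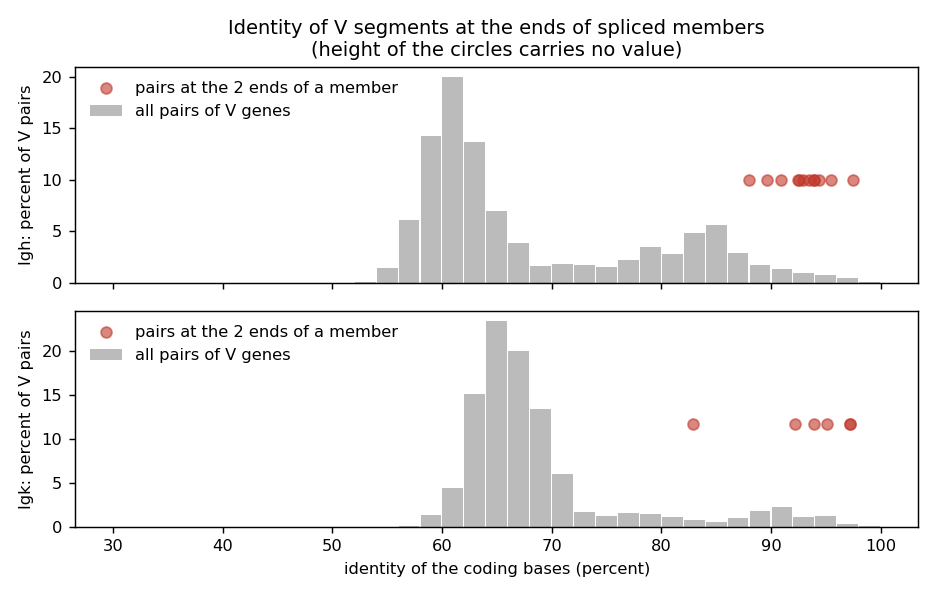
Percent identity of the coding bases of V segments (x axis) for all pairs of V genes at Igh and Igk (grey bars, percent of pairs on the y axis) and for the pairs at the 2 ends of spliced members (circles, whose height carries no value). The circles lie at 82.9% or above, whereas the medians of all pairs are 63.0% at Igh and 66.5% at Igk.

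Summed over all members, FPKM was higher in CIA spleen at each of the 6 loci. Some members share bases with receptor segments on their own strand, as 5830405F06Rik does with Trbv5, and others end inside V segments. Reads of receptor mRNA can therefore be counted in these sums, which was not tested. Igh members summed to 194.7 FPKM in CIA spleen and 122.2 FPKM in healthy spleen. Igl members summed to 103.1 FPKM in CIA spleen and 56.8 FPKM in healthy spleen. The largest sums were those of Igk, with 1326 FPKM in CIA spleen and 305.2 FPKM in healthy spleen, and most of this came from the assembled gene MSTRG.31436. Without its 2 isoforms Igk members summed to 155.8 FPKM in CIA spleen and 61.5 FPKM in healthy spleen. Tcrb members summed to 37.2 FPKM in CIA spleen and 14.3 FPKM in healthy spleen, nearly all of it from MSTRG.31039 and MSTRG.31040, without which they summed to 1.44 FPKM in CIA spleen and 0.243 FPKM in healthy spleen. Tcra/d members summed to 6.25 FPKM in CIA spleen and 4.05 FPKM in healthy spleen, and Tcrg members to 0.967 FPKM in CIA spleen and 0.683 FPKM in healthy spleen. The ratios of these sums ran from 1.42 at Tcrg to 4.34 at Igk, and Igk without MSTRG.31436 had 2.53, below the 2.61 of Tcrb. These sums include members found in a single library. Over members with at least 0.5 FPKM in both libraries the ratio was 1.21 at Igh, 1.28 at Igk, 1.95 at Igl, 2.10 at Tcra/d with 1 member and 1.42 at Tcrg, and Tcrb had no such member. All transcripts of the series past the filter described next had a median ratio of 1.20.

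**Figure D2:**
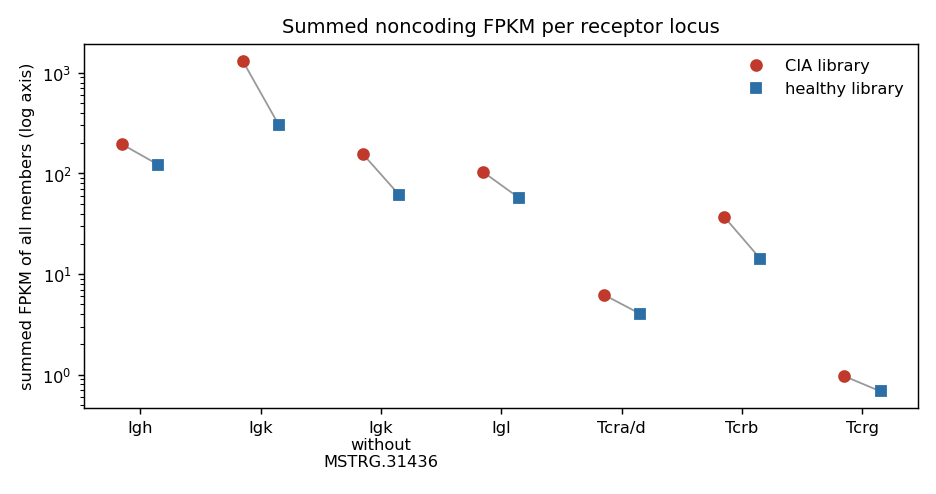
Summed FPKM of all members of each locus (y axis, log scale), with circles for the CIA library and squares for the healthy library. The CIA sum is the higher at every locus, by ratios from 1.42 at Tcrg to 4.34 at Igk, and by 2.53 at Igk without MSTRG.31436. Over members with at least 0.5 FPKM in both libraries, which are not drawn, the ratio was 1.21 at Igh, 1.28 at Igk and 1.95 at Igl.

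Of the 95 members, 79 reached 0.5 FPKM in either library, and 11 of the other 16 were listed at 0 in both. Log2 ratios are of CIA to healthy FPKM with 0.1 FPKM added to each, which understates the ratios of low transcripts. Among the 79, 44 (55.7%) were 2-fold or more higher in CIA spleen, compared with 17.0% of all 19841 transcripts past the filter. A further 8 (10.1%) were 2-fold or more lower, compared with 10.3% of all transcripts. Among the 4215 assembled transcripts of the overlapping, antisense, isoform and intergenic classes, to which most members belong, 21.9% were 2-fold higher and 13.5% were 2-fold lower. The median log2 ratio was 1.02 over the 71 immunoglobulin members past the filter, with 0.26 over all transcripts. It was 1.13 over the 8 T cell receptor members past the filter, of which only MSTRG.12148.2 and Gm42683 reached 0.5 FPKM in both libraries, so nothing is read from that median. Members that passed through a high value in 1 library had to differ, and 23 of the 79 lay under 0.5 FPKM in the other. Of the 56 members with at least 0.5 FPKM in both libraries, 27 (48.2%) were 2-fold higher and 2 (3.57%) were 2-fold lower, compared with 12.6% and 6.2% of all transcripts at that level. Annotated transcripts as a whole had a median log2 ratio of 0.30, and centring on it left 30 members 2-fold higher and 9 lower, compared with 11.2% and 14.4% of all transcripts past the filter centred in the same way.

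At Igh, the 10 members whose span held D segments were all higher in CIA spleen, 8 of them by 2-fold or more. They summed to 55.2 FPKM in CIA spleen and 22.2 FPKM in healthy spleen, a ratio of 2.49, and their log2 ratios lay between 0.78 and 2.92. Strandedness of the libraries is not stated, so whether both strands were transcribed was not tested, and strands are given as assigned. The 6 members on the strand opposite to the D segments summed to 30.96 FPKM in CIA spleen and 12.4 FPKM in healthy spleen. The 4 members on the same strand summed to 24.3 FPKM in CIA spleen and 9.82 FPKM in healthy spleen. The most abundant was MSTRG.9222.1 (chr12:113453232-113464298, plus strand, opposite to the segments), at 9.72 FPKM in CIA spleen and 4.78 FPKM in healthy spleen. On the strand of the segments MSTRG.9226.1 (chr12:113459864-113470312), which ends at Ighd5-8, reached 5.33 FPKM in CIA spleen and 1.62 FPKM in healthy spleen. MSTRG.9221.1, on the plus strand, which has the longest span of the members that do not reach Adam6b, reached 5.65 FPKM in CIA spleen and 2.46 FPKM in healthy spleen. MSTRG.9241.1, MSTRG.9242.1 and MSTRG.9243.1 span Adam6b, a protein-coding gene of the ADAM family that lies among the D segments. MSTRG.9242.1, on the minus strand, had 7.86 FPKM in CIA spleen and 3.15 FPKM in healthy spleen. MSTRG.9241.1, on the plus strand, had 5.33 FPKM in CIA spleen and 1.32 FPKM in healthy spleen. MSTRG.9243.1, also on the plus strand, was the least abundant D member, with 1.26 FPKM in CIA spleen and 0.0805 FPKM in healthy spleen. The 2 members within 2-fold were MSTRG.9228.1 and MSTRG.9229.1, and the lower ratio was that of MSTRG.9229.1, with 5.66 FPKM in CIA spleen and 3.25 FPKM in healthy spleen. Many of these spans overlap, so the members may share sequence and were not taken as independent measurements. Whether their exons overlap each other or the D segments was not checked.

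The V region of Igh gave a more mixed picture. Its 18 members past the filter had a median log2 ratio of 0.47 and summed to 135.1 FPKM in CIA spleen and 94.4 FPKM in healthy spleen. None was 2-fold lower and 8 (44.4%) were 2-fold higher, 5 of these with less than 0.5 FPKM in healthy spleen. Over all transcripts past the filter 17.0% were 2-fold higher. The most abundant members of healthy spleen were all lower in CIA spleen, though by less than 2-fold. MSTRG.9333.2, which ends in Ighv8-8, stood at 11.5 FPKM in CIA spleen and 18.9 FPKM in healthy spleen. MSTRG.9273.2, which ends in Ighv14-2, stood at 11.1 FPKM in CIA spleen and 17.5 FPKM in healthy spleen. MSTRG.9318.1, from Ighv1-80 to Ighv1-82, stood at 10.1 FPKM in CIA spleen and 13.6 FPKM in healthy spleen, and MSTRG.9283.1, from Ighv7-3 to Ighv7-4, at 7.999 FPKM in CIA spleen and 11.6 FPKM in healthy spleen. In contrast, several of the same assembled genes held another isoform that was much higher in CIA spleen. MSTRG.9333.3 stood at 15.9 FPKM in CIA spleen and 0.336 FPKM in healthy spleen. MSTRG.9318.4 stood at 16.4 FPKM in CIA spleen and 0.659 FPKM in healthy spleen. MSTRG.9268.1, from Ighv14-1 to Ighv14-4, stood at 7.11 FPKM in CIA spleen and 0.0367 FPKM in healthy spleen, beside its isoform MSTRG.9268.2 at 6.56 FPKM in CIA spleen and 8.97 FPKM in healthy spleen. The sharpest contrast was that of MSTRG.9283.2, which is 255 bases long where MSTRG.9283.1 has 282, and stood at 6.20 FPKM in CIA spleen and 0.000378 FPKM in healthy spleen.

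Summed per assembled gene, these contrasts were smaller. MSTRG.9333 with its 3 isoforms summed to 42.6 FPKM in CIA spleen and 19.6 FPKM in healthy spleen, a log2 ratio of 1.11. MSTRG.9318 summed to 26.5 FPKM in CIA spleen and 14.3 FPKM in healthy spleen, a log2 ratio of 0.89. MSTRG.9268 summed to 13.7 FPKM in CIA spleen and 9.002 FPKM in healthy spleen, and MSTRG.9283 to 14.2 FPKM in CIA spleen and 11.6 FPKM in healthy spleen. Only MSTRG.9333 of these 4 thus remained 2-fold higher. MSTRG.9334.1, which runs from Ighv8-8 to Ighv8-9 on the opposite strand, stood at 1.88 FPKM in CIA spleen and was listed at 0 in healthy spleen. Between the constant genes lay a single member, MSTRG.9192.1, 684 bases from Igha, the constant gene of immunoglobulin A, at 4.35 FPKM in CIA spleen and 5.51 FPKM in healthy spleen. No member past the filter held any of the 9 Igh constant genes and pseudogenes or the 4 J segments.

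**Figure D3:**
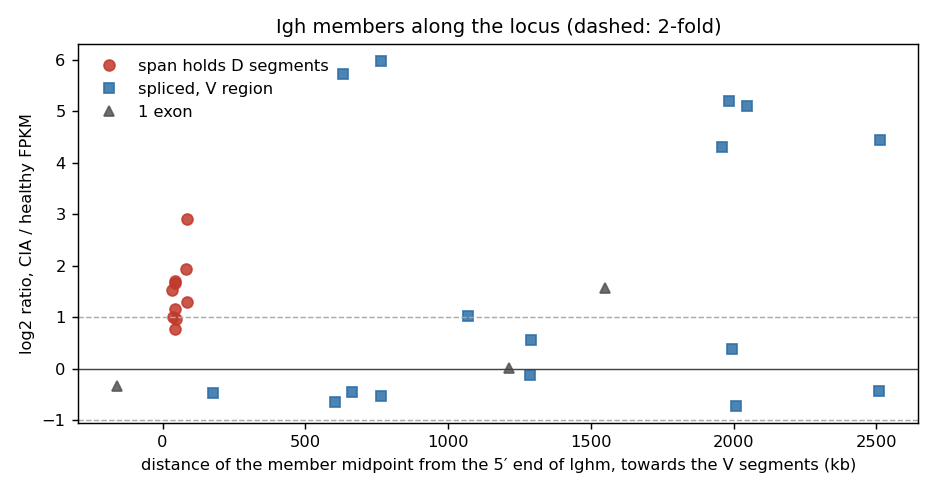
Log2 ratio of CIA to healthy FPKM (y axis) of the 29 Igh members past the filter against the distance of their midpoint from the 5′ end of Ighm in kb (x axis), with dashed lines at 2-fold. Members over D segments (circles) lie between 0.78 and 2.92, and 6 of the spliced V region members (squares) lie above 4, apart from the rest of their kind.

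**Figure D4:**
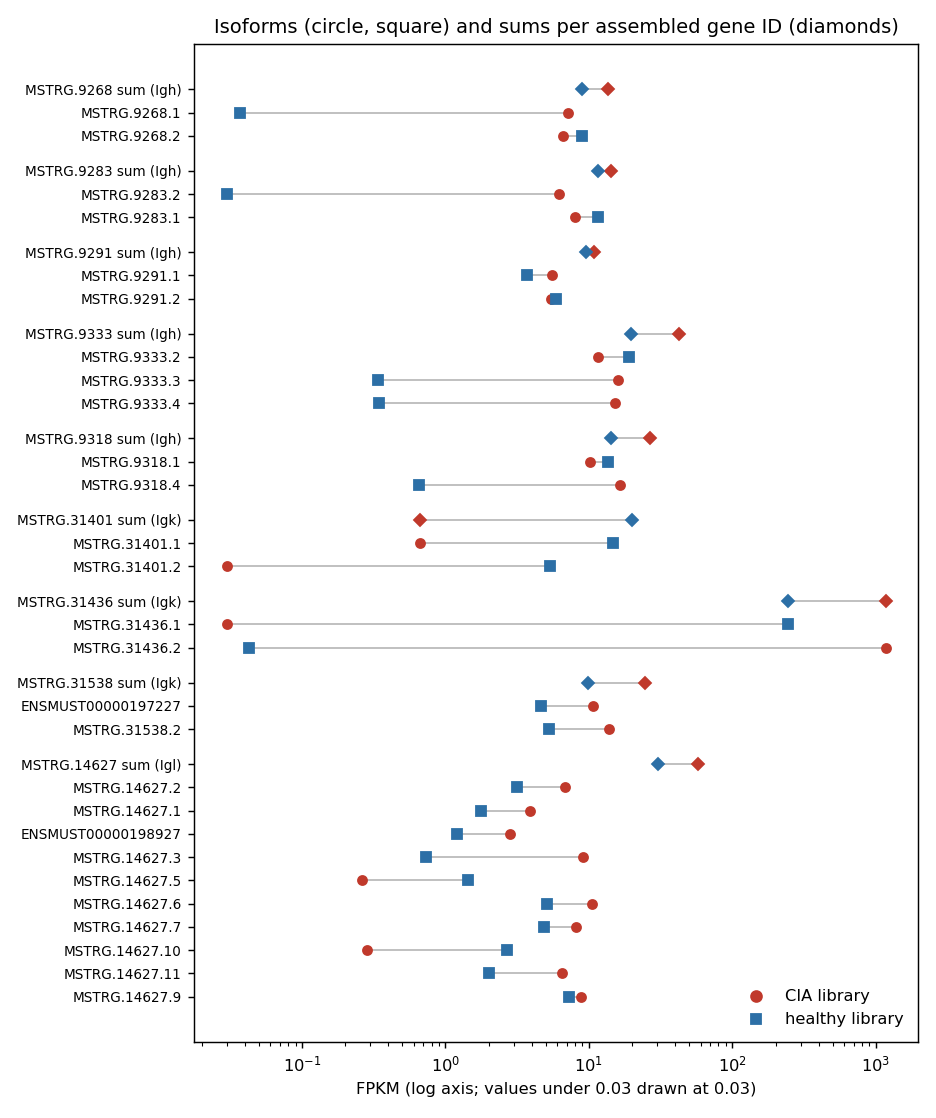
FPKM (x axis, log scale) of the isoforms past the filter of 9 assembled genes, with circles for the CIA library and squares for the healthy library, and of the sum over each gene (diamonds in the same colours); values under 0.03 are drawn at 0.03. At MSTRG.9268, MSTRG.9283 and MSTRG.9318 an isoform lies far apart between the libraries while the sums lie within 2-fold, and MSTRG.31401 is the only gene drawn whose sum is lower in CIA spleen.

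At Igk, 14 of 23 members past the filter (60.9%) were 2-fold higher in CIA spleen and 4 (17.4%) were 2-fold lower. The shares over all transcripts past the filter were 17.0% and 10.3%. With at least 0.5 FPKM in both libraries, 7 of 14 Igk members (50.0%) were 2-fold higher and 2 (14.3%) lower. Of all transcripts at that level 12.6% were higher and 6.2% lower. Most of the FPKM belonged to MSTRG.31436, whose isoforms both end in a gene that has a close copy elsewhere, so reads of that copy can be counted here. MSTRG.31436.2 stood at 1169.96 FPKM in CIA spleen and 0.0429 FPKM in healthy spleen. MSTRG.31436.1 was listed at 0 in CIA spleen and stood at 243.7 FPKM in healthy spleen. Each library thus held a different isoform, and their sum had a ratio of 4.80. Leaving out MSTRG.31436.2 alone turned the log2 ratio of the Igk sums to -0.97, and leaving out both isoforms gave 1.34.

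Between or beside the Igk V segments lay 10 members of 1 exon without a strand. Of these, 7 (70.0%) were 2-fold higher in CIA spleen, compared with 17.0% of all transcripts past the filter, and none was 2-fold lower. The 10 members summed to 50.1 FPKM in CIA spleen and 19.6 FPKM in healthy spleen. A run of 5 lay around Igkv4-50, and 4 of them were 2-fold higher. MSTRG.31442.1 had 2.61 FPKM in CIA spleen and 0.637 FPKM in healthy spleen. MSTRG.31444.1, the longest of the run, had 1.82 FPKM in CIA spleen and 0.347 FPKM in healthy spleen. MSTRG.31445.1 had 2.61 FPKM in CIA spleen and 0.593 FPKM in healthy spleen. The ratios, without a pseudocount, of these and of MSTRG.31450.1 lay between 4.09 and 5.25, whereas that of their neighbour MSTRG.31443.1, at 3.39 FPKM in CIA spleen and 2.27 FPKM in healthy spleen, was 1.497. MSTRG.31489.1, 2024 bases from Igkv1-35, was more abundant, at 11.03 FPKM in CIA spleen and 5.10 FPKM in healthy spleen. MSTRG.31370.1, 5415 bases from Igkv1-136, stood at 13.1 FPKM in CIA spleen and was listed at 0 in healthy spleen. MSTRG.31367.1, at the far end of the window and 51699 bases from any segment, differed little, at 7.57 FPKM in CIA spleen and 7.31 FPKM in healthy spleen.

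At the constant end of Igk, the annotated lncRNA Gm30211 (chr6:70719074-70740554, plus strand) spans the 5 kappa J segments and Igkc, the kappa constant gene, and shares no exon with them. It stood at 10.7 FPKM in CIA spleen and 4.61 FPKM in healthy spleen. The assembled isoform MSTRG.31538.2, which begins 8900 bases past Igkc, stood at 13.7 FPKM in CIA spleen and 5.27 FPKM in healthy spleen. The ratios of the isoforms, 2.32 and 2.61, were alike. Spliced members over Igk V segments went both ways. MSTRG.31469.1, from Igkv4-69 to Igkv4-59, stood at 55.1 FPKM in CIA spleen and was listed at 0 in healthy spleen. MSTRG.31387.2, from Igkv9-128 to Igkv14-126, stood at 11.1 FPKM in CIA spleen and was listed at 0 in healthy spleen. In the other direction MSTRG.31401.1, from Igkv1-117 to Igkv1-110, stood at 0.664 FPKM in CIA spleen and 14.6 FPKM in healthy spleen. Its isoform MSTRG.31401.2, of the same ends, stood at 0.000178 FPKM in CIA spleen and 5.40 FPKM in healthy spleen, so both isoforms were lower. MSTRG.31490.3, which ends in Igkv18-36, was also lower, at 0.807 FPKM in CIA spleen and 3.82 FPKM in healthy spleen. MSTRG.31497.1, from Igkv6-15 to Igkv6-14, was higher, at 2.15 FPKM in CIA spleen and 0.307 FPKM in healthy spleen. The span of MSTRG.31469.1 also holds Rprl1, a ribonuclease P RNA-like gene, whose annotated transcript was listed at 0 in both libraries.

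**Figure D5:**
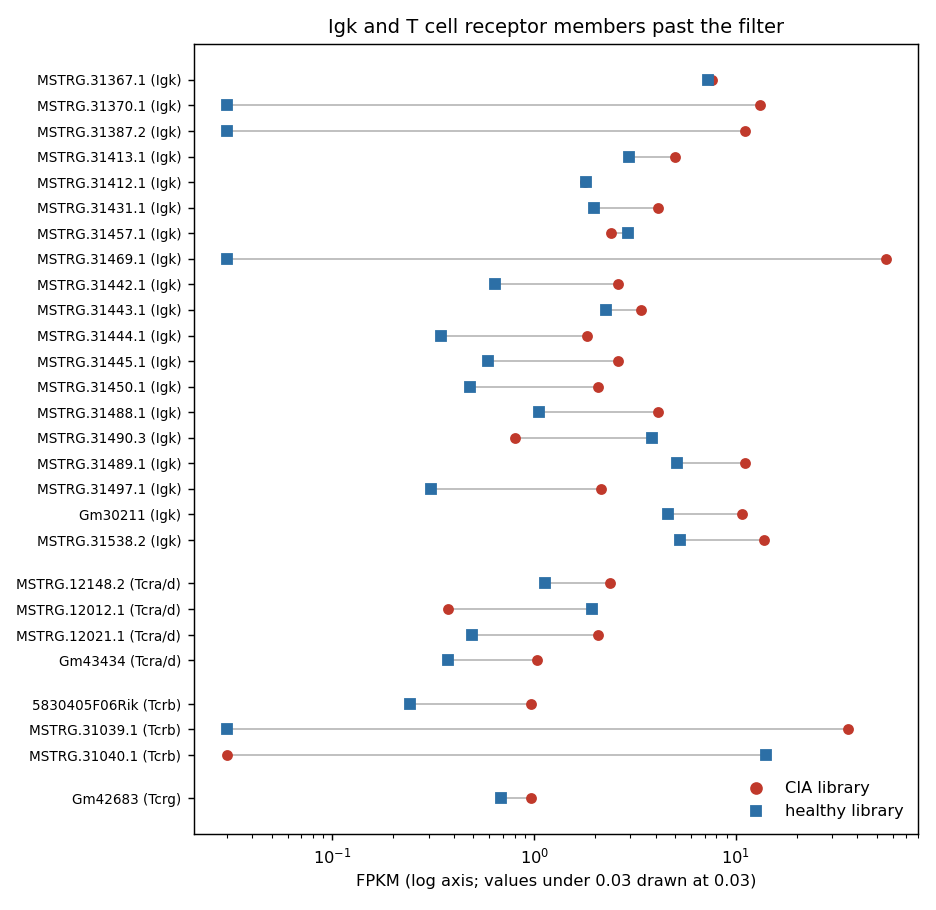
FPKM (x axis, log scale) of the Igk members outside MSTRG.31436 and MSTRG.31401 and of the T cell receptor members past the filter, with circles for the CIA library, squares for the healthy library, and values under 0.03 drawn at 0.03. Most circles lie to the right of their squares, as for Gm30211, and those of MSTRG.31490.3, MSTRG.12012.1 and MSTRG.31040.1 lie clearly to the left.

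At Igl, 9 of 19 members past the filter (47.4%) were 2-fold higher in CIA spleen and 2 (10.5%) were 2-fold lower. The shares over all transcripts past the filter were 17.0% and 10.3%. More than any other assembled gene, MSTRG.14627 covers the locus, on the strand opposite to the lambda segments, and spans of its members hold all 4 lambda constant genes. Its 11 members, which include the annotated lncRNAs 2010309G21Rik and Gm42870, summed to 57.2 FPKM in CIA spleen and 30.5 FPKM in healthy spleen, a log2 ratio of 0.91. 2010309G21Rik (chr16:19051367-19106749, plus strand) stood at 2.83 FPKM in CIA spleen and 1.20 FPKM in healthy spleen. An exon of it overlaps Iglc3, a lambda constant gene on the opposite strand, so without a stated strand setting reads of these genes cannot be told apart. MSTRG.14627.3, which starts at the same base, stood at 9.05 FPKM in CIA spleen and 0.734 FPKM in healthy spleen. MSTRG.14627.6, over Iglc2, stood at 10.5 FPKM in CIA spleen and 5.11 FPKM in healthy spleen. MSTRG.14627.7, which holds no segment, stood at 8.12 FPKM in CIA spleen and 4.86 FPKM in healthy spleen. The 2 lower members were isoforms of this gene too. MSTRG.14627.5 stood at 0.262 FPKM in CIA spleen and 1.43 FPKM in healthy spleen. MSTRG.14627.10 stood at 0.283 FPKM in CIA spleen and 2.68 FPKM in healthy spleen. It has the same start and end as MSTRG.14627.11, which went the other way, at 6.45 FPKM in CIA spleen and 2.01 FPKM in healthy spleen. MSTRG.14627.9, which starts at that base as well, stood at 8.75 FPKM in CIA spleen and 7.31 FPKM in healthy spleen.

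The other 10 Igl members summed to 45.9 FPKM in CIA spleen and 26.4 FPKM in healthy spleen. The most abundant was the annotated lncRNA Gm43388 (chr16:19212660-19236776, minus strand), at 12.7 FPKM in CIA spleen and 8.09 FPKM in healthy spleen. MSTRG.14638.1, 30050 bases from Iglc4, had the highest ratio of these, at 7.43 FPKM in CIA spleen and 1.75 FPKM in healthy spleen. MSTRG.14629.1, 18283 bases from Iglc1, stood at 2.55 FPKM in CIA spleen and 0.713 FPKM in healthy spleen. Both lay outside all segments, on the minus strand. MSTRG.14648.1, 21809 bases from Iglv2, stood at 7.05 FPKM in CIA spleen and 3.21 FPKM in healthy spleen. Among the 9 of them past the filter, MSTRG.14636.1 alone was lower in CIA spleen, at 2.40 FPKM in CIA spleen and 3.94 FPKM in healthy spleen. By assigned strand, plus-strand members of Igl had a ratio of sums of 1.84 and minus-strand members of 1.76.

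In the T cell receptor windows 8 of 18 members passed the filter, of which 5 (62.5%) were 2-fold higher in CIA spleen and 2 (25.0%) were 2-fold lower. The shares over all transcripts past the filter were 17.0% and 10.3%. All but MSTRG.12148.2 and Gm42683 lay under 0.5 FPKM in 1 library, so nothing is read from these counts. At Tcrb, MSTRG.31039.1 on the minus strand stood at 35.8 FPKM in CIA spleen and was listed at 0 in healthy spleen. MSTRG.31040.1, with the same start and end on the plus strand (chr6:41196262-41202101, 449 bases from Trbv21), was listed at 0 in CIA spleen and stood at 14.01 FPKM in healthy spleen. The interval was thus assigned to a different strand in each library, and its ratio with both strands together was 2.55. Leaving out MSTRG.31039.1 alone turned the log2 ratio of the Tcrb sums, 1.38 with all members, to -3.22, and without both it was 2.17. The annotated 5830405F06Rik, with exons that overlap the V segments Trbv4 and Trbv5 on the same strand, stood at 0.967 FPKM in CIA spleen and 0.243 FPKM in healthy spleen. Its shorter-spanned isoform stood at 0.473 FPKM in CIA spleen and was listed at 0 in healthy spleen.

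At Tcra/d, Gm43434 (chr14:54128298-54146287, minus strand) lies opposite to Trdc, the delta constant gene, and shares 48 of its 676 bases with it. It stood at 1.03 FPKM in CIA spleen and 0.376 FPKM in healthy spleen. MSTRG.12021.1, in an intron of Gm30275 and 1145 bases from the delta J segment Trdj1, stood at 2.06 FPKM in CIA spleen and 0.494 FPKM in healthy spleen. MSTRG.12148.2, from Trav16n to Trav16, stood at 2.36 FPKM in CIA spleen and 1.13 FPKM in healthy spleen. These 3 were 2-fold higher, and MSTRG.12012.1, in an intron of Gm43647, was 2-fold lower, at 0.372 FPKM in CIA spleen and 1.93 FPKM in healthy spleen. Of the annotated lncRNAs below the filter, Gm43647 stood at 0.246 FPKM in CIA spleen and 0.0851 FPKM in healthy spleen. Gm30214 and Gm43650, which are 99.5% identical to each other, were listed at 0 in both. At Tcrg, Gm42683 alone passed the filter, inside the coding gene Stard3nl and 40370 bases from the nearest gamma segment, at 0.967 FPKM in CIA spleen and 0.683 FPKM in healthy spleen. No member past the filter held Trac, Trbc1, Trbc2 or any of the 4 gamma constant genes.

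Counts by the relation of members to the segments are given beside the 17.0% higher and 10.3% lower of all transcripts past the filter. They include members under 0.5 FPKM in 1 library, which passed through the other, and differences between the groups were not tested. Of the 31 members past the filter on the strand opposite to the segments in their span, 17 (54.8%) were 2-fold higher and 5 lower in CIA spleen. On the same strand as the segments, 11 of 18 (61.1%) were 2-fold higher and 1 was lower. Of the 27 that hold no segment, 14 (51.9%) were 2-fold higher and 2 lower. Members with V segments at both ends had 10 of 19 (52.6%) higher and 2 lower, and the other 60 members had 34 (56.7%) higher and 6 lower. The other members include MSTRG.9333.2, MSTRG.9333.3 and MSTRG.9268.2, with an end in a V segment and the other end a few bases outside another. These groups are therefore not cleanly separate. With FPKM summed per assembled gene, 33 of 61 genes (54.1%) were 2-fold higher and 4 (6.56%) lower, compared with 16.4% and 9.84% of all genes of the series treated in this way.

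The authors' deposited table marked 23 members as significant, 22 of them higher in CIA spleen. These were 29.1% of the members past the filter, and the authors' deposited table marked 6.34% of all transcripts past the filter. A q below 0.05 in the authors' deposited table belonged to 2 members, both of them isoforms of MSTRG.14627 at Igl. They went in opposite directions, MSTRG.14627.3 with a q of 0.000158 and MSTRG.14627.5 with a q of 0.0132 in the authors' deposited table. For 33 of the 79 members past the filter the authors' deposited table gave a p of 1, among them both isoforms of MSTRG.31436. It compared the same 2 libraries, and how these values were computed is not stated in the labels or file headers used here. Every marked member differed by 2-fold or more in the deposited ratio. MSTRG.9228.1 was marked at a deposited log2 ratio of 1.001, and MSTRG.14640.1 at 0.991 was not. The share of marked members thus partly restates the 2-fold count and is not separate support for it.

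The nearest transcripts past the filter outside the windows were mixed. MSTRG.9190.1, 0.247 kb from the constant end of the Igh window, stood at 2.82 FPKM in CIA spleen and 1.47 FPKM in healthy spleen. MSTRG.31502.1, 6.09 kb past the constant end of Igk, stood at 2.23 FPKM in CIA spleen and 0.194 FPKM in healthy spleen. MSTRG.9190.1 was thus higher by less than 2-fold, and MSTRG.31502.1 lay under 0.5 FPKM in healthy spleen. On the V side of Igh, MSTRG.9322.1 in Zfp386 stood at 3.74 FPKM in CIA spleen and 3.44 FPKM in healthy spleen. Past the constant end of Tcrb, 92.6 kb away, Gm37527 stood at 11.3 FPKM in CIA spleen and 22.6 FPKM in healthy spleen. Past that of Tcra/d, 191 kb away, MSTRG.12065.1, named after Mmp14, stood at 4.87 FPKM in CIA spleen and 5.33 FPKM in healthy spleen. MSTRG.14653.1, 66.4 kb from the Igl window, stood at 2.07 FPKM in CIA spleen and 0.725 FPKM in healthy spleen. MSTRG.9591.1, named after Vps41 and 381 kb from the Tcrg window, stood at 6.25 FPKM in CIA spleen and 1.65 FPKM in healthy spleen. Both were thus 2-fold higher outside the windows. The remaining neighbours, named after Gm38825, Hira, Rab2b, Ssbp1 and Gpr141, had log2 ratios from -0.84 to 0.14.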

How the data were processed

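Spleen RNA was depleted of ribosomal RNA, per the labels' protocols. The submitters' processing notes name StringTie. Not given in the sources used here were its version, the aligner, the build, strandedness and the test. FPKM per transcript was deposited in 2 tables, per the file headers, with 0.0001 standing for 0. For all 32012 transcripts the deposited ratio (fold) matched CIA over healthy FPKM within a relative tolerance of 0.0001, and the log2 column deposited beside it is its logarithm. Each p-value and q-value was deposited by the authors and is only quoted. The CIA values of 2 damaged cells, neither of a member, were restored from the deposited ratio, so for these the check is met by construction. Coordinates of all 15172 annotated transcripts equalled those of GENCODE M21, hence GRCm38. Columns named model and control were taken as CIA and healthy.

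Members and lists were chosen with earlier results of these data known. Log2 ratios used a pseudocount of 0.1 FPKM, a filter of 0.5 FPKM in either library and a size rule of 2-fold, which was tested on simulated data. The simulation planted changes larger than the rule, so it does not measure how far libraries of the same group would differ. Named members were, per locus, the 5 most abundant, the 3 of highest and the 3 of lowest ratio, the 2 most abundant at 0 in a single library, each way, and every annotated member past the filter. Further members, the run around Igkv4-50, the division of Igh by D segments, and the sums per strand and per assembled gene were chosen after their values were seen. The FPKM tables hold no counts, so depth is unknown and no counting interval was given. Segments came from GENCODE M21, identities from global alignment of coding bases (Biopython 1.88), and copies from blastn 2.17.0. Python 3.11.15, numpy 2.4.6, pandas 2.3.3 and matplotlib 3.10.9 were used. Locus sums, counts of members past 2-fold and medians were recomputed with another pseudocount, filter, centring, fold rule or set of members, as far as each applies, and the sums with weighting by length. A gene overlapped by MSTRG.31436 and its sequence are not reported here.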

Additional observations from a re-analysis of the deposited data

How the results depend on the processing

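No paired analysis was possible because CIA spleen and healthy spleen had 1 library each, and no library could be left out. The alternatives added after seeing the data were sums per assembled gene, members with at least 0.5 FPKM in both libraries, and Igk without MSTRG.31436. Without the most abundant member the log2 ratio of the sums was -0.97 at Igk and -3.22 at Tcrb, since the partner with the reverse pattern stayed in the sum. Without both isoforms of MSTRG.31436 the Igk ratio was 1.34. With members of at least 0.5 FPKM in both libraries it was 0.36 at Igk, and Tcrb had none. With annotated transcripts only, the log2 ratio was 1.20 at Igk, 1.39 at Tcra/d and 2.17 at Tcrb. With members holding a segment only, it was 2.17 at Tcrb. The count 2-fold higher was 27 with at least 0.5 FPKM in both libraries. Under the 4-fold rule 16 members were higher and 8 lower, and the 2-fold rule gave 8 lower as well. The 4-fold rule is stricter by construction, and its share over all transcripts was not computed. Counts 2-fold lower were 4 per assembled gene and 2 with at least 0.5 FPKM in both libraries. The T cell receptor median was 0.22 with no filter, where members at 0 in both libraries enter. The Igh and Igl ratios moved by less than 1.5 times under every alternative run. At Tcrg the ratio is that of Gm42683 alone. No value could be had for Igh with annotated members only, which were at 0 in both libraries, or for Tcrg with assembled members or members holding a segment only. FPKM carries no depth, so counting error is unknown.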
